A study of Mus musculus with 6 samples.

Results

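The genes described here encode the enzymes of prostaglandin and leukotriene synthesis in mouse bone marrow-derived macrophages (BMDMs). They were taken by name as 10 of the 22248 genes listed in the expression table: *Pla2g4a*, *Ptgs1*, *Ptgs2*, *Ptges*, *Ptges3*, *Tbxas1*, *Alox5*, *Alox5ap*, *Lta4h* and *Ltc4s*. Transcript levels were compared between 3 BMDM libraries from control mice (*Lyz2Cre*) and 3 from mice lacking the transcriptional coregulator CITED2 in myeloid cells (*Lyz2Cre Cited2 Fl/Fl*). All 6 libraries came from unstimulated cells of C57BL/6 mice at postnatal week 10 per the labels, while the study's methods give a younger age for the marrow donors. Both genotypes carry a single Cre allele at *Lyz2*, a locus active in macrophages, monocytes and neutrophils, so the controls share the Cre and lack only the floxed *Cited2* alleles. The sources used here do not say whether the 3 libraries of a group came from separate animals, so the p-values measure the spread between these libraries, which may be technical.

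Arachidonic acid is released from membrane phospholipids, chiefly by cytosolic phospholipase A2, and then enters one of several branches. Cyclooxygenases convert it to prostaglandin H2, which terminal synthases turn into prostaglandin E2 (PGE2), thromboxane A2 and other prostanoids. In the lipoxygenase branch, 5-lipoxygenase and its activating protein make leukotriene A4, which is hydrolysed to the neutrophil attractant leukotriene B4 or joined to glutathione to give leukotriene C4. Macrophages are a major source of these lipids in inflamed tissue, where cyclooxygenase-1 is usually constitutive and cyclooxygenase-2 is induced by inflammatory stimuli. The data here are RNA levels in resting cells and do not include enzyme activity or lipid amounts.

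*Ptgs1*, *Ptgs2* and *Ptges* were the members with the largest fall and the 2 rises, and the 250 bases before their annotated starts are shown because the results turn on them. The sequences are RefSeq's on GRCm38.p6, 5′ to 3′ on the gene's strand, and lie at chr1:150099781-150100030 (plus strand), chr2:36230176-36230425 (plus strand) and chr2:30903298-30903547 (minus strand), in that gene order *Ptgs2*, *Ptgs1*, *Ptges*. The RefSeq start used for *Ptges* lies inside the longer annotated span given for the gene further on, which begins at another transcript's start. Capitals mark a match to a motif searched on both strands.
Ptgs2 promoter: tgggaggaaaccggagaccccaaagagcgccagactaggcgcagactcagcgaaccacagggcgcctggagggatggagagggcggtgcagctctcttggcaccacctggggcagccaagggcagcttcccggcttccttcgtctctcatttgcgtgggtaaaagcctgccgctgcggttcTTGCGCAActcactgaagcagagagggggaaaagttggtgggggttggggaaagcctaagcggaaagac
Ptgs1 promoter: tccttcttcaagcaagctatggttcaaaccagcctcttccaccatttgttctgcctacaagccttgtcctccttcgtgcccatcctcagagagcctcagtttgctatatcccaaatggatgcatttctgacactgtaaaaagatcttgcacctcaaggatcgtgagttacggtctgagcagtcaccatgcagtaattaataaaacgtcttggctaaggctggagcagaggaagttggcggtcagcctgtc
Ptges promoter: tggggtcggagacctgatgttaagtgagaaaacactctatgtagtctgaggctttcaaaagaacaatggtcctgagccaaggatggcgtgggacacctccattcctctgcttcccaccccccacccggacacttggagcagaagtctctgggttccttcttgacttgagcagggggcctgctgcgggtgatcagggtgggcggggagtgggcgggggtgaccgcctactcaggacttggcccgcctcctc

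The capitals in the *Ptgs2* promoter are a match to the C/EBP motif TTNNGCAA, 69 bases before the start, and its letters read the same on both strands. In the 50 bases after the start, *Ptgs2* also held the core of the cyclic AMP response element, CGTCA, and the E-box CACGTG, which overlap each other. No searched motif was found in the windows of *Ptgs1* or *Ptges*. The motifs are common: TTNNGCAA was present in 10.8% of the 32851 windows of this length, CGTCA in 20.8% and CACGTG in 7.15%. TATAAA (13.6% of windows), TTCNNNGAA for STAT or BCL6 (8.30%), an interferon-stimulated response element (3.44%) and an NF-kB motif (5.80%) were searched too, and none of them matched in these 3 windows. Of the 10 members, 9 had a promoter window, and *Alox5ap* had none. GC content was 61.6% for *Ptgs2*, 59.6% for *Ptges* and 48% for *Ptgs1* over the 250 bases shown.

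The levels below are FPKM (fragment counts scaled to transcript length and library depth), and a fold change is the difference in log2(FPKM + 1) between CITED2-deficient and control libraries, tested with limma across the 11687 genes that averaged 1 FPKM or more. The depth, recovered from the FPKM steps, was 17289286 to 18952077 fragments in control libraries and 22583995 to 26100410 in CITED2-deficient ones. The targeted gene followed the labels: *Cited2* read 71.7, 79.3 and 75.5 FPKM in control libraries and 9.27, 7.22 and 7.53 in CITED2-deficient ones (log2 fold change -3.09). The macrophage markers *Adgre1*, *Csf1r* and *Cd68* were at 906 FPKM or more in every library, and the summed level of 8 macrophage markers was 5624 to 5694 in control and 5287 to 5367 in CITED2-deficient libraries. Singly, 5 of the 8 fell past the threshold (*Adgre1* -0.32, *Csf1r* -0.31, *Itgam* -0.81, *Mertk* -0.26 and *Lyz2* -1.59 on the log2 scale), *Fcgr1* rose (1.48), and *Cd68* and *Cd14* did not pass. *Lyz2*, whose locus carries the Cre, was listed at only 30.6 to 32.5 FPKM in control and 9.39 to 10.0 in CITED2-deficient libraries.

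All 10 members passed the expression filter, *Ptgs2* only through its level in CITED2-deficient BMDMs and *Ltc4s* only through its level in control BMDMs. At its control mean of 0.388 FPKM in all libraries *Ptgs2* would not have passed. *Ltc4s* would have passed at its control mean of 2.33 FPKM, but not at its CITED2-deficient mean of 0.776 FPKM. In a fit with no filter both kept their calls (limma adjusted p = 0.000558 for *Ptgs2* and 0.00688 for *Ltc4s*). With CITED2 deficiency, 2 members rose (*Ptgs2* and *Ptges*), 7 fell and *Pla2g4a* did not pass the threshold (adjusted p under 0.05). Over all genes tested, 51.3% passed, 16.7% rising and 34.6% falling, so the share of members that rose is near the background. The groups did not overlap for any of the 10 members, 2 being higher and 8 lower, while 59.9% of all genes did not overlap, 19.0% being higher and 40.9% lower. The median log2 fold change of the members was -0.34, against -0.10 over all genes tested.

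**Figure D1:**
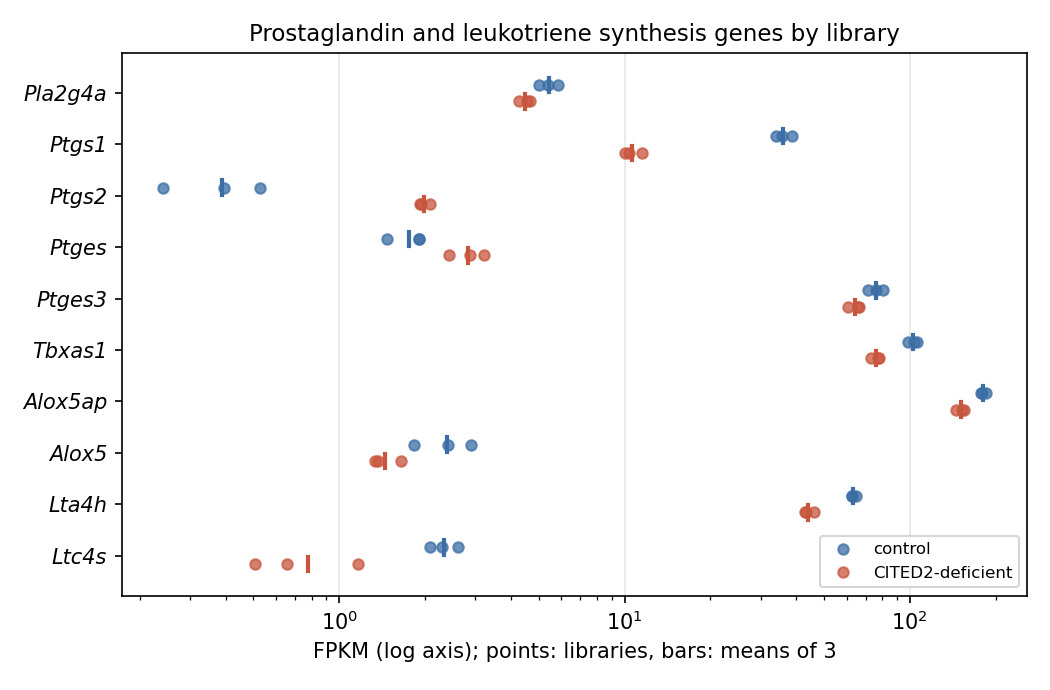
FPKM of the 10 genes on a log axis, with 1 point per library, control and CITED2-deficient libraries on separate lines, and a bar at the mean of 3. *Ptgs2* and *Ptges* sit higher in all 3 CITED2-deficient libraries and the other 8 genes lower, from *Alox5ap* near 180 FPKM in control to *Ptgs2* under 1.

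The members spanned a wide range of levels per length. In control BMDMs the order was *Alox5ap*, *Tbxas1*, *Ptges3*, *Lta4h*, *Ptgs1*, *Pla2g4a*, *Alox5*, *Ltc4s*, *Ptges* and *Ptgs2*, and only the neighbours *Alox5* and *Ltc4s* overlapped between libraries. In CITED2-deficient BMDMs the first 6 places were the same, and *Ptges* and *Ptgs2* stood above *Alox5* and *Ltc4s*, with no overlap between neighbours. The 5-lipoxygenase-activating protein was thus abundant in both genotypes (means of 181 and 151 FPKM) while the enzyme it serves, *Alox5*, averaged 2.38 and 1.45 FPKM.

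*Pla2g4a* (ENSMUSG00000056220, chr1:149829618-149961290 on mm10, minus strand) encodes cytosolic phospholipase A2, which frees arachidonic acid from phospholipids. Its FPKM was 5.01, 5.37 and 5.85 in control and 4.25, 4.65 and 4.54 in CITED2-deficient libraries. Every CITED2-deficient value was below every control value, but the difference missed the threshold (log2 fold change -0.22, SE 0.085, 95% interval -0.42 to -0.03, limma adjusted p = 0.053). It passed when control replicate 1 was left out (-0.27, adjusted p = 0.0495) and in a fit with no variance trend (adjusted p = 0.0257). It moved away from the threshold after median-ratio scaling (-0.14, adjusted p = 0.227) and after quantile normalization (-0.15, adjusted p = 0.192). *Pla2g4a* lies 138741 bases from *Ptgs2* on the same chromosome, with opposite transcription and opposite signs of fold change.

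*Ptgs1* (ENSMUSG00000047250, chr2:36230426-36252272, plus strand), which encodes cyclooxygenase-1, had the largest change among the members on the log2(FPKM + 1) scale, while by the ratio of means *Ptgs2* changed more. Its FPKM was 38.6, 34.0 and 35.6 in control libraries and 11.5, 10.0 and 10.4 in CITED2-deficient libraries. The mean thus fell 3.39-fold, from 36.1 ± 2.34 to 10.6 ± 0.763 (SD, n = 3), and the groups stood far apart. The log2 fold change was -1.67 (SE 0.067, 95% interval -1.82 to -1.52, limma adjusted p = 8.37e-08), and it ranked 48 from the largest fall among all genes tested. An antisense gene, *Gm43621*, shares exon sequence with *Ptgs1* but averaged only 0.124 and 0.0126 FPKM. The study's methods name a stranded library kit, but the counting was not stated to use strand. Whether reads from these genes were kept apart is therefore not known.

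*Ptgs2* (ENSMUSG00000032487, chr1:150100031-150108227, plus strand) encodes cyclooxygenase-2, the inducible isoform. It was listed at 0.528, 0.241 and 0.395 FPKM in control and at 1.92, 1.93 and 2.09 in CITED2-deficient libraries. All 3 CITED2-deficient values were therefore several times the highest control value, and the ratio of means was 5.10. These levels are low, resting on 24, 10 and 18 fragments in control and 117, 105 and 131 in CITED2-deficient libraries. With the filter limit given above, the rise passed the threshold (log2 fold change 1.11, SE 0.14, 95% interval 0.79 to 1.43, limma adjusted p = 0.00019), and it was 2.37 (SE 0.30) in a limma-voom fit to the recovered fragments, where no pseudocount of 1 FPKM damps it. The study also lists *Ptgs2* among BCL6-repressed genes picked as raised in these same libraries, so that listing is not independent evidence of its direction.

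The cyclooxygenase balance moved with both isoforms. The ratio of *Ptgs1* to *Ptgs2* FPKM was 73.1, 141 and 90.1 in control libraries and 6.00, 5.18 and 4.98 in CITED2-deficient libraries. *Ptgs1* remained the more abundant isoform in all 6 libraries. The log2 ratio averaged 6.61 ± 0.486 in control and 2.42 ± 0.142 in CITED2-deficient BMDMs (SD, n = 3), a difference of -4.18 or 18.2-fold (two-sided exact permutation p = 0.1, the smallest p that 3 against 3 allows). A ratio within a library does not depend on the scaling between libraries. Computed on FPKM + 1, which damps the low *Ptgs2* values, the difference was -2.78. Expressed as a share of both, *Ptgs2* made up 1.35%, 0.703% and 1.10% in control and 14.3%, 16.2% and 16.7% in CITED2-deficient libraries.

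**Figure D2:**
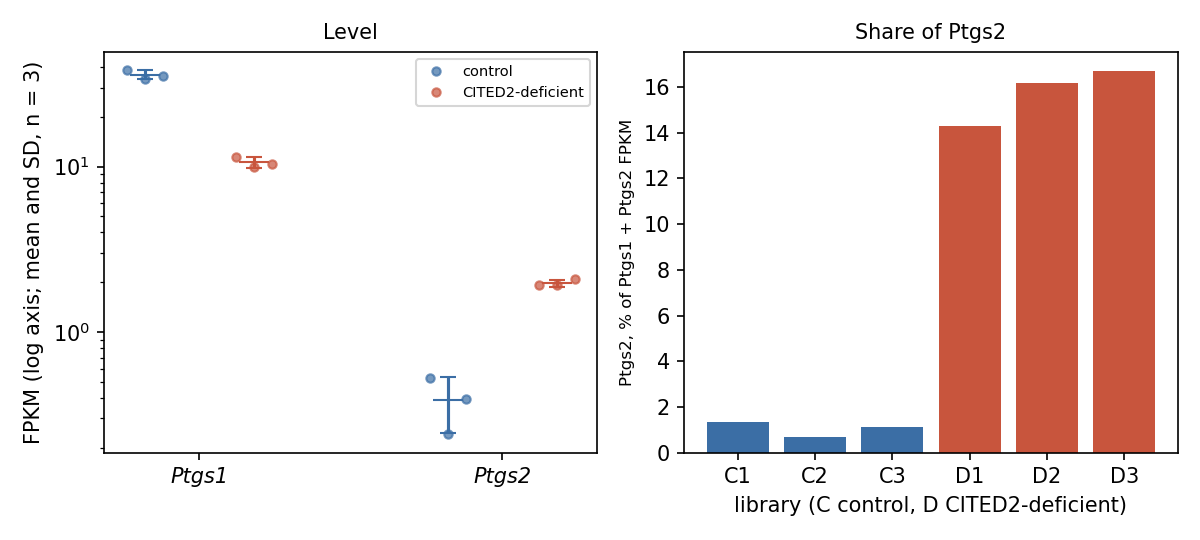
Left, FPKM of *Ptgs1* and *Ptgs2* on a log axis with 1 point per library, mean and SD (n = 3). Right, *Ptgs2* as a percentage of *Ptgs1* plus *Ptgs2* FPKM in each library, at 0.703% to 1.35% in control and 14.3% to 16.7% in CITED2-deficient libraries.

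Of the PGE2 synthases, *Ptges* (ENSMUSG00000050737, chr2:30889471-30929863, minus strand) encodes the inducible membrane enzyme that works mostly behind cyclooxygenase-2. Its FPKM was 1.90, 1.47 and 1.90 in control and 2.86, 2.42 and 3.22 in CITED2-deficient libraries. The 2 groups did not overlap, and *Ptges* rose with *Ptgs2* (log2 fold change 0.47, SE 0.13, limma adjusted p = 0.0123). Without CITED2-deficient replicate 3 the call was lost (0.40, adjusted p = 0.0522). *Ptges3* (ENSMUSG00000071072, chr10:128058954-128077272, plus strand), known as the HSP90 cochaperone p23 and also as a cytosolic PGE2 synthase, went the other way. It read 76.2, 80.6 and 71.4 FPKM in control and 66.4, 65.8 and 60.9 in CITED2-deficient libraries, a small fall (log2 fold change -0.24, SE 0.052, limma adjusted p = 0.0045) that was -0.13 and no longer passed after median-ratio scaling (adjusted p = 0.0689). *Ptges3* was still the far more abundant transcript of the pair in every library.

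*Tbxas1* (ENSMUSG00000029925, chr6:38875404-39084585, plus strand) encodes thromboxane A synthase, which makes thromboxane A2 from prostaglandin H2. Its FPKM was 103, 106 and 98.3 in control and 77.4, 77.8 and 73.0 in CITED2-deficient libraries, so the groups stood well apart with little spread. The fall passed the threshold (log2 fold change -0.42, SE 0.040, limma adjusted p = 2.87e-05). *Hipk2*, a kinase gene on the opposite strand whose span overlaps that of *Tbxas1* without sharing exons, rose over the same libraries (24.4 ± 2.43 to 42.2 ± 2.89 FPKM, SD, n = 3, log2 fold change 0.77, limma adjusted p = 3.66e-05).

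In the leukotriene branch all 4 members fell, against 34.6% of all genes tested. *Alox5ap* (ENSMUSG00000060063, chr5:149264767-149288153, plus strand) encodes the membrane protein that hands arachidonic acid to 5-lipoxygenase. It read 180, 178 and 186 FPKM in control and 155, 145 and 153 in CITED2-deficient libraries (log2 fold change -0.26, SE 0.034, limma adjusted p = 0.000219), a modest shift in the most abundant member. *Alox5* (ENSMUSG00000025701, chr6:116410077-116461178, minus strand), the 5-lipoxygenase itself, read 2.40, 1.83 and 2.90 FPKM in control and 1.65, 1.33 and 1.37 in CITED2-deficient libraries. Control libraries spread widely here, and the lowest of them was close to the highest CITED2-deficient value. Its fall was the least stable of the 7 (log2 fold change -0.45, SE 0.14, limma adjusted p = 0.0269). It missed the threshold without control replicate 1 (adjusted p = 0.0685), control replicate 3 (0.095), CITED2-deficient replicate 2 (0.073) or CITED2-deficient replicate 3 (0.0744), and also after median-ratio scaling (0.0523).

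*Lta4h* (ENSMUSG00000015889, chr10:93453411-93484875, plus strand) encodes the hydrolase that makes leukotriene B4. Its FPKM was 63.0, 64.6 and 62.5 in control and 46.2, 43.0 and 43.1 in CITED2-deficient libraries. The tight groups gave a clear fall (log2 fold change -0.51, SE 0.040, limma adjusted p = 7.9e-06). *Ltc4s* (ENSMUSG00000020377, chr11:50236461-50238616, minus strand) encodes the glutathione-dependent synthase at the head of the cysteinyl leukotrienes. It was low, at 2.62, 2.29 and 2.09 FPKM in control and 1.17, 0.657 and 0.505 in CITED2-deficient libraries, counted from 30, 24 and 24 against 18, 9 and 8 fragments. *Ltc4s* had the largest fall of the leukotriene genes on the log2(FPKM + 1) scale (-0.92, SE 0.16, limma adjusted p = 0.00142), and the limma-voom fit to fragments gave -1.63. An antisense gene that shares exon sequence, *Gm26542*, averaged 0.330 and 0.0692 FPKM. Antisense genes that share exon sequence with *Tbxas1* (*Gm42962*, 0.148 and 0.0787 FPKM) and *Alox5ap* (*Gm19719*, 0.0527 and 0.0950 FPKM) were low as well.

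**Figure D3:**
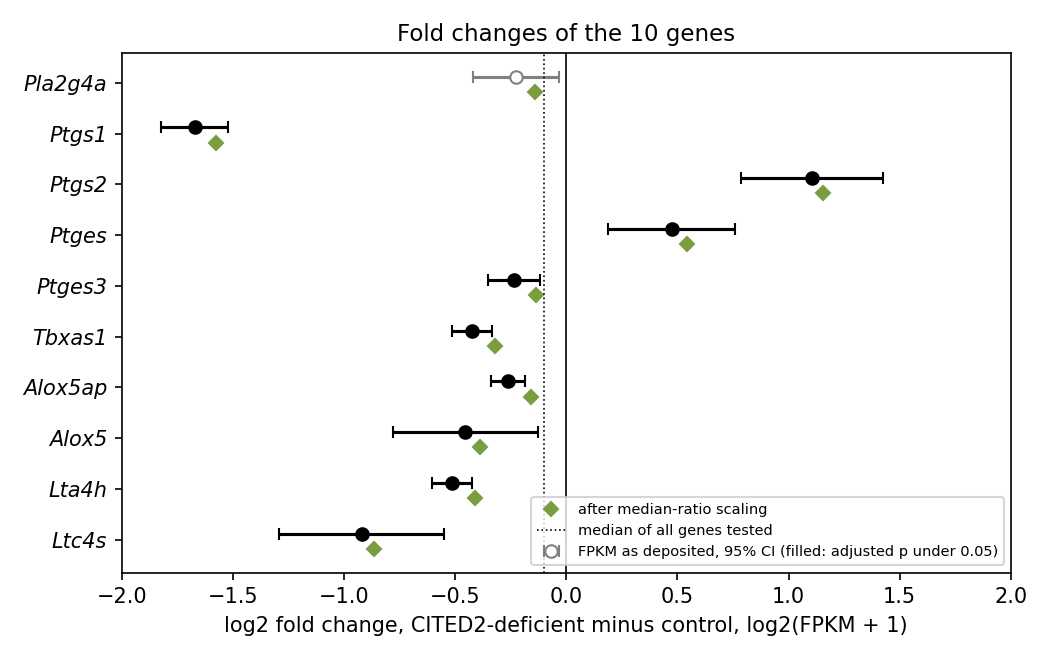
Log2 fold change of each gene with its 95% interval (circles, filled where the adjusted p was under 0.05) and after median-ratio scaling (diamonds); the dotted line is the median of all genes tested, -0.10. *Ptgs1* at -1.67 and *Ptgs2* at 1.11 lie farthest from that line, and *Pla2g4a* at -0.22 has the open circle.

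Because the median gene fell by 0.10 on the log2 scale, the members were also read after median-ratio scaling, which moved that median to -0.0069. *Ptgs2* (1.16), *Ptges* (0.54) and *Ptgs1* (-1.57) kept their calls, and of the 7 falls only those of *Ptges3* and *Alox5* were lost. No member changed sign.

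The genes with profiles over the 6 libraries most like that of *Ptgs1*, by root mean square distance between centred log2(FPKM + 1) values, were *Igfbp4* (distance 0.0519), *Ctsg* (0.0568) and *Fchsd2* (0.0724). *Igfbp4* encodes an insulin-like growth factor binding protein and *Ctsg* the granule protease cathepsin G. For *Ptgs2* the nearest were *Tlr3* (0.0535), *Parva* (0.0591) and *Peak1os* (0.0597). *Tlr3* encodes the endosomal sensor of double-stranded RNA and averaged 6.57 FPKM in control and 15.9 in CITED2-deficient BMDMs. The pseudocount damps low genes, so a near profile need not mean a like ratio of FPKM. *Ptgs2* averaged 0.388 FPKM in control and 1.98 in CITED2-deficient BMDMs, and *Ctsg* 4.22 and 0.626.

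Around the members, 98 further genes of the pathway were listed by role, of which 90 were in the table and 68 were tested. Of these, 12 rose and 32 fell, with a median log2 fold change of -0.15. The share that rose is near the 16.7% of all genes tested, and the share that fell is above their 34.6%. After median-ratio scaling 19 rose and 23 fell, beside 2696 and 2490 of the 11687 genes tested, and no gene called in the deposited scale changed sign.

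Substrate supply was mixed. Among 9 tested genes listed under substrate release, not all of which free arachidonate, 3 rose (*Daglb*, *Dagla* and *Pla2g7*) and 5 fell. After median-ratio scaling the counts were 4 and 3. Over all genes tested, 16.7% rose and 34.6% fell. *Mgll*, which releases glycerol and arachidonic acid from 2-arachidonoylglycerol, went from 13.1 ± 0.344 to 6.76 ± 0.351 FPKM (SD, n = 3, log2 fold change -0.86, limma adjusted p = 5.53e-06). *Daglb*, a diacylglycerol lipase that makes the substrate of *Mgll*, rose from 56.6 ± 1.59 to 84.5 ± 3.96 FPKM (0.57, adjusted p = 6.25e-06), and the lysosomal phospholipase *Pla2g15* fell from 221 ± 9.34 to 143 ± 3.66 FPKM (-0.63, adjusted p = 1.38e-06). Of 12 tested genes that make or activate arachidonate or return it to phospholipids, 2 rose (*Acsl1* and *Acsl5*). The 6 that fell were *Acsl3*, *Lpcat1*, *Lpcat2*, *Lpcat3*, *Mboat7* and *Fads1*, the largest fall being that of *Lpcat1* at -0.44. After median-ratio scaling 2 rose and 4 fell, as *Lpcat2* and *Lpcat3* no longer passed.

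Of the other prostanoid synthases, 4 of 6 tested fell and none rose, against 34.6% falling and 16.7% rising over all genes tested. The reductase *Fam213b*, which makes prostaglandin F2alpha, read 55.1, 51.7 and 55.2 FPKM in control and 24.1, 24.7 and 25.9 in CITED2-deficient libraries (log2 fold change -1.09, SE 0.046, limma adjusted p = 1.18e-07). The aldo-keto reductase *Akr1b8* (-0.75) and the carbonyl reductase *Cbr1* (-0.50) fell too. *Hpgds*, the haematopoietic prostaglandin D2 synthase, singled out after its values were seen because it had the highest control level of the prostanoid synthases listed, averaged 142 ± 3.76 and 138 ± 4.75 FPKM (SD, n = 3), and its difference of -0.04 did not pass (limma adjusted p = 0.35).

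Of the 6 genes of prostanoid transport and breakdown, the 5 tested fell (4 after median-ratio scaling), against 34.6% of all genes tested. The uptake transporter *Slco2a1* was below the filter and higher without overlap, at 0.606, 0.331 and 0.441 FPKM in control and 1.11, 0.973 and 0.970 in CITED2-deficient libraries. *Hpgd*, the dehydrogenase that inactivates PGE2, read 22.1, 20.96 and 22.1 FPKM in control and 9.19, 7.53 and 9.08 in CITED2-deficient libraries. These groups were far apart (log2 fold change -1.25, SE 0.076, limma adjusted p = 1.59e-06). *Zadh2* (-0.47) and *Ptgr1* (-0.42), reductases of the next steps of breakdown, fell, as did *Ptgr2* and the exporter *Abcc4*. In the 7 tested genes of leukotriene conversion and export, 3 fell, led by the leukotriene C4 exporter *Abcc1* (75.4 ± 1.46 to 53.3 ± 2.36 FPKM, SD, n = 3, log2 fold change -0.49, limma adjusted p = 1.08e-05). *Dpep1*, a dipeptidase that turns leukotriene D4 into E4, was the only one of the 7 that rose, although it passed the filter only through its CITED2-deficient level, from 0.953, 0.824 and 0.713 to 3.48, 1.96 and 2.70 FPKM (1.00, adjusted p = 0.000933). After median-ratio scaling that list had 2 rises and 3 falls.

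No receptor of either branch passed the threshold, against 51.3% of all genes tested. The PGE2 receptors *Ptger4* (-0.07, SE 0.060, limma adjusted p = 0.343) and *Ptger2* (0.20, SE 0.077, adjusted p = 0.0592) and the prostacyclin receptor *Ptgir* (-0.26, SE 0.11, adjusted p = 0.0684) were the 3 prostanoid receptors tested. *Ptger2* passed after median-ratio scaling (0.28, adjusted p = 0.0150). Of the 3 leukotriene receptors tested, *Cysltr1* differed by 0.07, *Ltb4r1* by -0.29 and *Cysltr2* by -0.47, and *Cysltr1* passed after median-ratio scaling.

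Among 11 tested regulators of the members' proteins or mRNAs, 3 rose (*Anxa1*, *Zfp36* and *Cebpb*) and 5 fell. Over all genes tested the shares were 16.7% and 34.6%. *Anxa1*, annexin A1, known as an inhibitor of phospholipase A2 action, rose from 991 ± 31.2 to 1641 ± 34.6 FPKM (SD, n = 3, log2 fold change 0.73, limma adjusted p = 1.23e-07). The p38 kinase gene *Mapk14* (-0.42) and the mRNA decay factor gene *Zfp36l1* (-0.45) fell, as did *Mapkapk2*. Of 11 HSP90 chaperone partners of the *Ptges3* product, 3 rose and 3 fell, but 5 rose and none fell after median-ratio scaling. The HSP90 activator *Ahsa1* led them, at 96.3 ± 1.02 and 176 ± 4.03 FPKM (0.86, limma adjusted p = 3.73e-08). The single gene tested among other lipoxygenases and epoxide hydrolases, *Ephx1*, fell (-0.37, limma adjusted p = 0.0037).

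**Figure D4:**
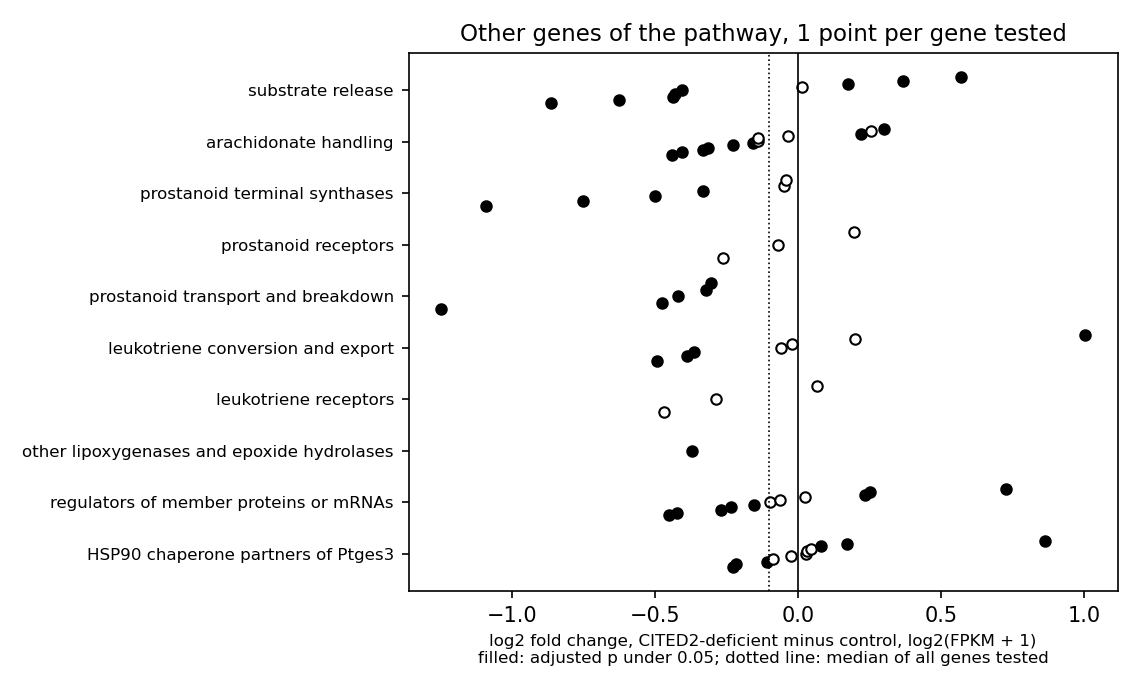
Log2 fold change of the 68 other pathway genes tested, 1 point per gene in rows by role, filled where the adjusted p was under 0.05, with the median of all genes tested as a dotted line. All 5 genes of prostanoid transport and breakdown lie left of 0 with *Hpgd* farthest at -1.25, while *Dpep1*, which passed the filter only through its CITED2-deficient level, lies at 1.00.

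Other cells of the marrow also make these enzymes, and in bulk RNA fewer cells of a type and less RNA per cell cannot be told apart. Mast cells and basophils make much *Ltc4s* and *Alox5*. Over the 6 of 9 markers listed, their sum was 2.57 to 3.42 FPKM in control and 1.55 to 1.86 in CITED2-deficient libraries. *Fcer1a* was listed at 0 in all CITED2-deficient libraries, against 1, 1 and 4 fragments in control. *Kit*, the only 1 tested, averaged 1.32 and 1.12 FPKM with overlap and did not pass (limma adjusted p = 0.417). *Gata2* overlapped too. Eosinophil markers summed to 10.6 to 12.4 and 3.51 to 5.34 FPKM over 5 markers, with *Prg2* at 6.25, 8.42 and 6.17 in control against 1.78, 1.06 and 0.46. *Ccr3* fell from 3.38 to 2.45 FPKM, *Siglecf* averaged 0.842 and 1.12 FPKM with overlap, and *Epx* was listed at 0 in all CITED2-deficient libraries against 3, 5 and 4 fragments in control. The sums moved in the same direction as *Ltc4s* and *Alox5*, and their part in those falls was not tested.

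Platelets and megakaryocytes are rich in *Ptgs1* and *Tbxas1*. Their summed marker level went from 315 to 344 FPKM in control to 79.2 to 90.9 in CITED2-deficient libraries, nearly all of it *Pf4*, which macrophages also make. *Ppbp* and *Itga2b* rose, and the platelet-defining *Gp9* and *Gp6* were at most 0.591 FPKM in all libraries, with *Gp9* at 0 in 1 control library. *Gp1ba* averaged 1.18 FPKM in control and 0.845 in CITED2-deficient libraries, lower without overlap, and did not pass (limma adjusted p = 0.169). Neutrophil markers summed to 741 to 810 and 666 to 784 FPKM. Of the 9 tested, 6 fell, *Mpo*, *Elane* and *Prtn3* among them, against 34.6% of all genes tested. *Ltf* rose, as did *Retnlg*, which passed the filter only through its CITED2-deficient level. The part of these cells in the result was not tested.

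Fibroblasts induce *Ptgs2* and *Ptges* readily, and all 7 tested fibroblast or stromal markers rose, against 16.7% of all genes tested. One of the 7, *Pdgfrb*, passed the expression filter only through its CITED2-deficient level. The sum of the markers listed was 53.5 to 63.0 FPKM in control. It was 592, 203 and 206 in CITED2-deficient replicates 1, 2 and 3, *Lum* being near 0 throughout. The sum was thus raised in all 3 CITED2-deficient libraries, as were *Ptgs2* and *Ptges*, and its part in those rises was not tested. Dendritic cell markers (0.38 to 0.45 and 0.43 to 0.64 FPKM) and lymphocyte markers (0.97 to 2.09 and 1.41 to 1.98 FPKM) stayed low in all libraries.

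**Figure D5:**
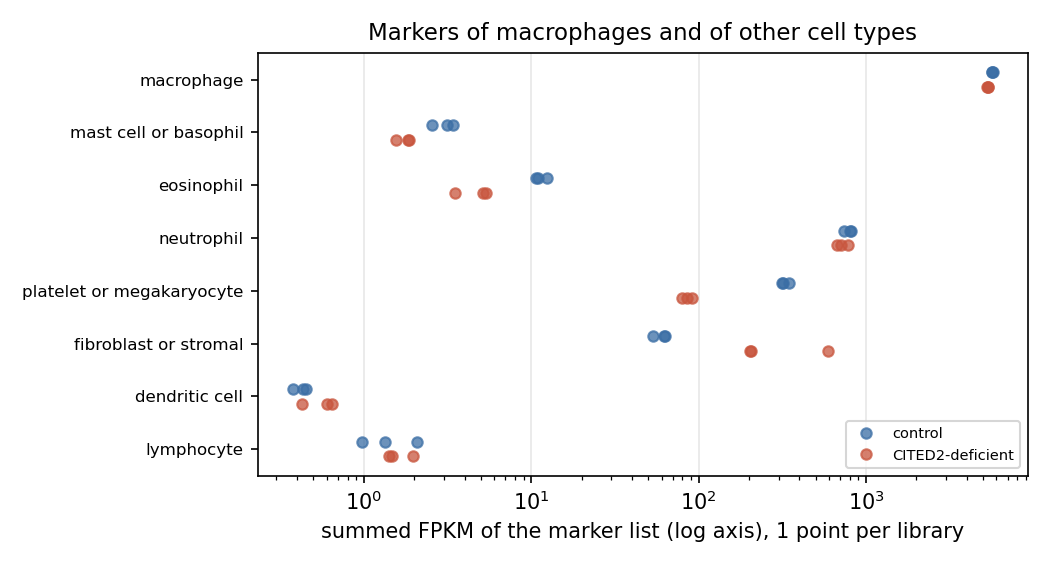
Summed FPKM of each marker list on a log axis, 1 point per library. Macrophage markers lie at 5287 or more in all 6 libraries, platelet, eosinophil and mast cell lists are lower in CITED2-deficient libraries, and fibroblast markers are higher, with 1 library at 592.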

How the data were processed

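RNA of 6 BMDM libraries, 3 control and 3 CITED2-deficient, was grouped by the sample titles. Per the submitters' processing notes, the authors used STAR, Cufflinks and Cuffdiff with mm10 and deposited FPKM per gene and library; versions, annotation and strand setting are not stated there. Annotation here was GENCODE M21. FPKM times transcript length came out in whole-fragment steps (within 0.02) for 21374 of 22248 genes (96.1%), which gave the depth. CITED2-deficient libraries were 1.34 times deeper, and low values rest on the fragments given.

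Values were tested as log2(FPKM + 1) with limma 3.58.1 (trended eBayes, R 4.3.3), two-sided, without covariates, at a mean FPKM of at least 1 and a Benjamini-Hochberg adjusted p of 0.05 over all genes tested. The fit was tested on simulated data. The pseudocount understates changes of low genes. Exact permutation tests used scipy 1.17.1. The members and lists were chosen with earlier results of these data known. Named are all members, *Cited2*, tested genes overlapping members, antisense genes sharing exons with members, the 3 nearest profiles of *Ptgs1* and *Ptgs2*, markers, and up to 3 pathway genes per list with the largest change given with values, plus *Hpgds*. Alternatives were other pseudocounts, filters, scalings, weights, fragments, a fold threshold, a replicate block and each library left out.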

Additional observations from a re-analysis of the deposited data

How the results depend on the processing

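No member changed sign under the alternatives tried. Of the 68 further pathway genes tested, 10 changed sign after median-ratio scaling, none of them past the threshold in the deposited scale. Requiring a fold change of at least 1.5 as well left 1 member higher and 2 lower, and 3 further pathway genes higher and 5 lower. With a mean FPKM of at least 5, 0 members were higher, since *Ptgs2* and *Ptges* were not tested there. Median-ratio scaling gave 19 further pathway genes higher. Leaving out each library in turn gave 1 to 2 members higher and 6 to 7 lower, 10 to 11 pathway genes higher and 28 to 31 lower, a *Cited2* log2 fold change of -3.19 to -3.03, and a *Ptgs1* to *Ptgs2* log2 ratio difference of -4.39 to -3.92. Across all alternatives the members lower numbered 2 to 8. *Ptgs1*, *Ptgs2* and *Ltc4s* kept their calls in every alternative that tested them, and *Alox5* lost its call in 7 of 16. Libraries of the 2 genotypes that share a replicate number did not deviate together (correlations 0.0138, 0.00784 and 0.0402), and not every library correlated best with its own number, so the numbers were not taken as pairs; a fit with the replicate block gave 2 members higher and 7 lower, 11 pathway genes higher and 31 lower, a *Cited2* change of -3.09 and a *Ptgs1* to *Ptgs2* log2 ratio difference of -4.18. Depth limits *Ptgs2* and *Ltc4s* most.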

Other observations

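Of the 90 further pathway genes listed, 22 were below the expression filter and were not tested. Groups did not overlap for *Pla2g4c*, *Ptgis*, *Akr1c18*, *Slco2a1*, *Ptger1*, *Ggt5*, *Ltb4r2* and *Alox15*, and overlapped for the rest. Among all genes tested, which leave out these 22, 59.9% did not overlap. The share among genes below the filter was not computed. The genes given with values here were chosen after those values were seen. The values of *Slco2a1*, the prostaglandin uptake transporter, rest on 24 to 48 fragments in control and 92 to 118 in CITED2-deficient libraries. *Akr1c18*, a prostaglandin F synthase and progesterone-metabolising reductase, read 0.414, 0.201 and 0.367 FPKM in control and 0.923, 0.577 and 0.899 in CITED2-deficient libraries. *Alox15*, the 12/15-lipoxygenase of some resident macrophages, was near the floor at 0.149, 0.163 and 0.186 against 0.0277, 0.0312 and 0.0540 FPKM, which rests on 5 fragments or fewer in each library. *Ptger1*, a PGE2 receptor, read 0.929, 0.767 and 0.840 FPKM in control and 0.757, 0.616 and 0.559 in CITED2-deficient libraries.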
